A study of Macaca mulatta with 6 samples.

Results

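Endothelial and angiogenic genes were followed over the day in the rhesus macaque adrenal gland. The genes are PECAM1, VWF, CDH5, KDR, TEK, ENG, CLDN5, TIE1, VEGFA and ANGPT2, and the members are every probe set that the array's annotation names for one of them. The set is 10 of the 11963 genes that a probe set names alone, and the rule gave 18 of the 22215 probe sets that are not controls. VEGFA had 4, PECAM1 3, TEK, ENG and ANGPT2 2 each, and the other genes 1. No probe set named a member together with another gene, and all 10 symbols are in the macaque RefSeq gene table. The array, an Affymetrix design on human sequence, was hybridised with RNA of whole left adrenal glands from 6 ovariectomized female macaques, with a single animal collected every 4 h from 3 AM to 11 PM. All animals had lived for 3 months in single cages with light and dark alternating every 12 h, and were fasted for 12 h before necropsy. When the lights came on is not stated in the labels. Each clock time is therefore a single animal, and a difference between any pair of times has no spread of its own to be read against. Both the 3 AM and the 7 AM animal were 12 years old. The 11 AM animal was 10 years 37 days old, that of 3 PM 8 years 106 days, that of 7 PM 7 years 82 days and that of 11 PM 8 years 70 days. The older animals lie in the early hours, so age and clock time cannot be told apart.

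The adrenal is among the most densely vascularised organs: arteries enter through the capsule, and thin-walled sinusoids run through the cortex to the medulla, so that each steroid-making cell lies close to blood. Endothelial cells are held together by the adhesion proteins PECAM1 (CD31) and CDH5 (VE-cadherin) and the tight junction protein CLDN5, and store the clotting factor VWF. VEGFA, made by the tissue's other cells, signals to the endothelium through the receptor KDR (VEGFR2), while TEK (TIE2) with its partner TIE1 binds the angiopoietins, of which ANGPT2 loosens vessels and antagonises TEK in many settings. ENG is a co-receptor for TGF-beta and BMP ligands on endothelial cells.

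Values are scaled intensities without a unit. The arrays had median intensities between 154 and 173.1. The hybridisation controls, which are spiked in, averaged 414 (geometric mean) on the 3 AM array and 538 on that of 3 PM, with 790 to 900 on the rest. As a check of the tissue, all 7 cortex genes and all 5 medulla genes that the array held lay at or above the level used for testing. Of 3 kidney genes on the array 1 did, AQP2. In whole tissue, fewer endothelial cells and less RNA per cell cannot be told apart.

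Of the 18 probe sets, 13 lay at or above the median level of all probe sets, an intensity of about 157 as a mean of logs, and were tested with 11108 in all. These cover 7 genes. KDR, CLDN5, both probe sets of ANGPT2 and 1 of PECAM1 (208981_at) lay below this level and are described by their values. VWF was kept only through its 3 AM array: its mean log2 intensity was 7.56 with that array and 7.05 without it, against a floor of 7.30.

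No member probe set passed adjustment for a daily course, and a course shared by the genes was not tested as such. A 24-h cosine fitted to log2(intensity + 1) gave 0 of 13 member probe sets with an adjusted p under 0.05 by limma's moderated F test (lowest adjusted p = 0.866). In that test 0% of all tested probe sets passed (lowest adjusted p = 0.208). At an unadjusted p under 0.05 the count was again 0 of 13, where 5.44% of all tested did. The ordinary F test gave 1 of 13 at an unadjusted p under 0.05, an ENG probe set described below, where 5.64% of all tested passed. The median fitted peak-to-trough difference was 0.36 on the log2 scale for the members and 0.44 for all tested probe sets, with a median standard error of 0.32 over all tested. The smaller of these differences are thus about the size of their error.

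Between the arrays of 7 AM, 11 AM and 3 PM (day) and those of 7 PM, 11 PM and 3 AM (night), 8 of the 13 were higher by day and 5 lower, with a median difference of 0.11 on the log2 scale against -0.00 for all tested. By limma 0 of 13 passed adjustment (lowest adjusted p = 0.841), as did 0% of all tested. At an unadjusted p under 0.05, 1 of 13 was higher by day, ENG 201809_s_at, where 5.53% of all tested passed, 2.93% higher by day and 2.59% lower. The higher-by-day share of those calls over all tested probe sets was 53.1%, and 42.8% when each array was centred on its median. Day and night arrays did not overlap for 4 of the 13, PECAM1 208982_at, both ENG probe sets and VEGFA 211527_x_at, where 10.7% of all tested did not overlap. With 3 arrays a side an exact permutation test cannot go below p = 0.1.

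**Figure D1:**
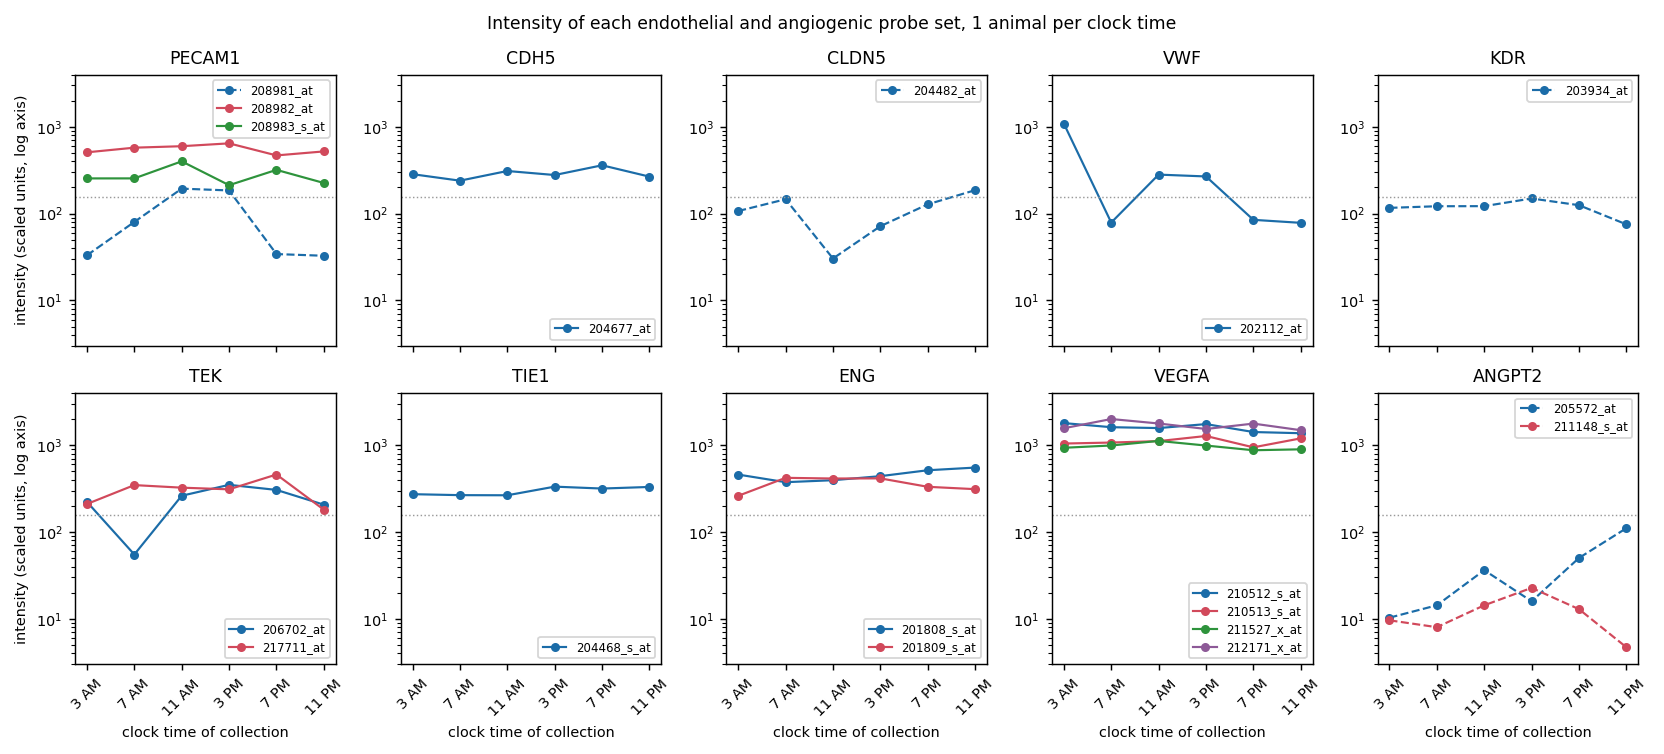
Intensity of the 18 endothelial and angiogenic probe sets (log axis) against clock time of collection, 1 animal per point, with a panel per gene and a colour per probe set; dashed lines are probe sets below the level for testing, which the dotted grey line marks. VWF stands at 1087 at 3 AM and between 78.3 and 281 elsewhere, and the TEK probe set 206702_at falls to 55.0 at 7 AM, while the highest array is 1.26 times the lowest for TIE1 and 1.28 to 1.35 times for the VEGFA probe sets.

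Of the junction genes, PECAM1 was higher by day on 2 of its 3 probe sets in every array, by very different amounts. The probe set 208982_at read 508 at 3 AM, 575 at 7 AM, 598 at 11 AM, 645 at 3 PM, 468 at 7 PM and 520 at 11 PM. Its 3 day arrays lie above all 3 night arrays, and the difference was 0.28 ± 0.18 (SE) on the log2 scale, with an unadjusted p = 0.153 and an adjusted p = 0.940 by limma. On 208981_at, below the level for testing, the intensity was 33.1 at 3 AM, 80.2 at 7 AM, 194 at 11 AM, 185 at 3 PM, 34.2 at 7 PM and 32.7 at 11 PM. The night arrays of this probe set sit within 1.5 units of one another and the 3 day arrays stand 2.35 to 5.67 times above the highest of them. When probe sets of every level were fitted, its peak was 7.96 times its trough at 11.9 h, a log2 difference of 2.99 ± 0.49 (SE), with an unadjusted p = 0.00367 and an adjusted p = 0.880 by limma; 5.14% of all 22215 had an unadjusted p under 0.05 there. The exact permutation test of its R2 (0.909) over the 60 circular orders of the arrays gave p = 0.0167, the smallest it can give. The day minus night difference in that fit was 2.06 ± 0.37 (SE), with an unadjusted p = 0.00108 and an adjusted p = 0.471 by limma, where 5.03% of all had an unadjusted p under 0.05.

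The third PECAM1 probe set, 208983_s_at, did not follow these. It read 254 at 3 AM, 255 at 7 AM, 400 at 11 AM, 213 at 3 PM, 319 at 7 PM and 225 at 11 PM, with its highest and lowest values on neighbouring day arrays. The groups overlap, and the day minus night difference was 0.08 ± 0.27 (SE; adjusted p = 0.985 by limma). PECAM1 is also carried by platelets, macrophages and some lymphocytes. Platelet markers (5 probe sets of 4 genes tested, of 7 genes listed) were higher by day in 3 of 5 probe sets and summed to between 1356 and 1906; macrophage markers were higher by day in 1 of 4 (sum 1010 to 1449) and lymphocyte markers in 2 of 5 (sum 919 to 1514). Their part in the PECAM1 values was not tested.

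CDH5, the cadherin that defines the endothelial adherens junction, had a range close to the middle of the tested members. Its intensity was 285 at 3 AM, 240 at 7 AM, 310 at 11 AM, 278 at 3 PM, 360 at 7 PM and 267 at 11 PM. The highest array was 1.50 times the lowest, a log2 range of 0.59 against a median of 0.56 for the 13, and day and night overlap (day minus night -0.13 ± 0.21, SE; adjusted p = 0.977 by limma). CLDN5, below the level for testing, read 107 at 3 AM, 146 at 7 AM, 30.4 at 11 AM, 71.6 at 3 PM, 128 at 7 PM and 186 at 11 PM. It was lowest at 11 AM, when CDH5 had its second-highest value, and its cosine in the fit without a level filter had an unadjusted p = 0.0891 (limma; adjusted p = 0.944).

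VWF, the multimeric glycoprotein that endothelial cells keep in storage granules and release to bind platelets, had the widest range of the tested members. Its intensity was 1087 at 3 AM, 78.9 at 7 AM, 281 at 11 AM, 268 at 3 PM, 84.8 at 7 PM and 78.3 at 11 PM. The values form 3 levels: 7 AM, 7 PM and 11 PM lie between 78.3 and 84.8, 11 AM and 3 PM at 281 and 268, and 3 AM 3.86 times above the next-highest array. A 24-h curve described this course poorly: the cosine had an R2 of 0.0979 and a log2 peak-to-trough difference of 1.22 ± 1.37 (SE). Without the 3 AM array the remaining 5 gave a difference of 2.42 with a peak at 13.4 h instead of 6.67 h, but VWF then lay below the level for testing and its p is not read. The difference was 3.68 without the 7 AM array and 0.52 without that of 7 PM. Both fits keep the 3 AM array, which alone brings VWF to the level for testing, so their p is not read. With age as a covariate it was 10.3 ± 4.50 (SE) with a peak at 18.2 h (adjusted p = 0.839 by limma), so neither its size nor its peak hour held across these settings.

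Most other members were not high in the 3 AM animal. There, 4 of the 13 member probe sets lay above their own mean, VWF, VEGFA 210512_s_at, ENG 201808_s_at and TEK 206702_at, the lowest count together with 11 PM, and CDH5, TIE1 and PECAM1 208982_at stood at 285, 272 and 508. Markers of some other cells stood high at 3 AM. Both tested adipocyte probe sets, FABP4 and LPL, were at their highest (summed intensity 3462, against 1146 to 2981 elsewhere). The 3 tested probe sets of red blood cells, all of HBB, were above their means (sum 6634, with 3393 to 6654 elsewhere). Pericyte and smooth muscle markers were mixed. They were above their means in 7 of 11 probe sets, where 52.1% of all tested were, but their sum was low (16064, range 14693 to 24018). RGS5, a pericyte marker, was lowest at 3 AM on 209070_s_at (5300, up to 11154 elsewhere) and 218353_at (2590, up to 7337). On 209071_s_at it read 853 at 3 AM and 1255 at 7 AM. Among the probe sets above their means were those of MYH11, the smooth muscle myosin. All 4 MYH11 probe sets were highest at 3 AM: 201497_x_at read 1931 there and 1497 at 7 PM, its next-highest array, and 207961_x_at 597 and 305 at the same hours. The dimmer 201496_x_at and 201495_x_at, below the level for testing, read 342 and 142 at 3 AM and at most 202 and 33.9 elsewhere. All 4 are x_at probe sets, in which some probes may also bind other transcripts. Other markers of this list differed: TAGLN read 1906 at 3 AM and 3963 at 7 PM, and PDGFRB 434.7 and 752.5. At these hours ACTA2 read 1463 and 1498 on 200974_at and 272 and 301 on 215787_at. CNN1 read 342 and 334, and NOTCH3 203238_s_at 376.5 and 338. Fibroblast and capsule markers were above their means in 10 of 13 probe sets at 3 AM (sum 28588, range 25670 to 30496). COL1A1, a collagen chain, differed between its probe sets. At 3 AM 202311_s_at read 496 (92.3 to 208 elsewhere) and 217430_x_at 1801, its highest. By contrast 202310_s_at read 1535 at 3 AM and 1644 at 7 PM. On 202312_s_at, below the level for testing, 3 AM was lowest (35.6, with 112 to 149 elsewhere). DCN read 7410 at 3 AM on 201893_x_at and up to 9477 elsewhere, and was lowest at 3 AM on 211813_x_at and 211896_s_at. On 209335_at it was highest there (900, with 404 to 602 elsewhere). COL3A1 was highest at 3 AM on 201852_x_at (600), 211161_s_at (392) and 215076_s_at (1433). On 215077_at, below the level for testing, it was lowest there (6.90). Medulla markers were lowest at 3 AM (sum 13569, up to 34549 at 7 AM). The part of these cells in the VWF value was not tested.

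Among the receptors, TEK gave readings that depended on the probe set. On 206702_at it read 222 at 3 AM, 55.0 at 7 AM, 261 at 11 AM, 349 at 3 PM, 305 at 7 PM and 206 at 11 PM. Here 7 AM alone is low, 3.75 times below the next-lowest array, a gap reached by 46 of the tested probe sets (0.414%), where 3.02% had a gap of at least 2 times. On 217711_at the intensity was 210 at 3 AM, 347 at 7 AM, 324 at 11 AM, 310 at 3 PM, 459 at 7 PM and 181 at 11 PM, so that 7 AM was its second-highest array. Both probe sets have low values at 11 PM and 3 AM relative to 11 AM, 3 PM and 7 PM. The cosine of 206702_at had the lowest p among the 13 tested members, with a log2 peak-to-trough difference of 1.83 ± 0.66 (SE), a peak at 17.8 h and an unadjusted p = 0.0695 (adjusted p = 0.866 by limma; exact p = 0.183 over the orders). The difference was 0.70 without the 7 AM array, 2.73 without that of 3 AM and 2.10 without that of 11 AM. Their unadjusted limma p-values were 0.161, 0.0106 and 0.0377, and the adjusted ones 0.968, 0.671 and 0.921. The cosine difference of 217711_at was 0.83 ± 0.43 (SE) with a peak at 13.8 h (adjusted p = 0.882 by limma). Its day minus night difference of 0.33 became 0.74 without 7 PM, a night array and its highest (unadjusted p = 0.00914, adjusted p = 0.839 by limma).

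TIE1, the orphan partner of TEK, had the narrowest range of all 13. Its intensity was 272 at 3 AM, 266 at 7 AM, 265 at 11 AM, 333 at 3 PM, 316 at 7 PM and 330.0 at 11 PM. The values fall into a lower set from 3 AM to 11 AM and a higher set from 3 PM to 11 PM, 1.26 times apart at most, and this split is also that between the 3 older and the 3 younger animals. Its fitted log2 peak and trough lay 0.37 ± 0.26 (SE) apart, with an R2 of 0.812 and a peak at 19.2 h (adjusted p = 0.910 by limma; exact p = 0.267). KDR, the main signalling receptor for VEGFA, lay below the level for testing, at 116 at 3 AM, 122 at 7 AM, 122 at 11 AM, 149 at 3 PM, 125 at 7 PM and 75.2 at 11 PM. The 11 PM array is the lowest and that of 3 PM the highest, and the cosine without a level filter had an adjusted p = 0.951 by limma.

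The 2 ENG probe sets ran in opposite directions between day and night, each without overlap. Those of TEK and ANGPT2 also differed in sign, with day and night arrays overlapping. On 201808_s_at the intensity was 458 at 3 AM, 374 at 7 AM, 394 at 11 AM, 439 at 3 PM, 514 at 7 PM and 552 at 11 PM. All 3 night arrays lie above the 3 day arrays, and the day minus night difference was -0.33 ± 0.19 (SE; unadjusted p = 0.109, adjusted p = 0.919 by limma). On 201809_s_at it was 261 at 3 AM, 420 at 7 AM, 413 at 11 AM, 414 at 3 PM, 331 at 7 PM and 311 at 11 PM. Here the 3 day arrays, which span 7.6 units, lie above all 3 night arrays, by 0.47 ± 0.19 (SE; unadjusted p = 0.0331, adjusted p = 0.841 by limma). Of the cosine fits of all 13, that of 201808_s_at had the smallest scatter: the R2 was 0.964, the peak fell at 21.3 h and the residual SD was 0.05 on the log2 scale, against a median of 0.27 for all tested. Its ordinary F test gave an unadjusted p = 0.00676 and the exact permutation test p = 0.0333, while limma, which draws small variances towards those of other probe sets, gave an unadjusted p = 0.170 for a log2 peak-to-trough difference of 0.54 ± 0.26 (SE). The cosine of 201809_s_at peaked at 12.1 h, 9.20 h from that of its partner. The unadjusted call of 201809_s_at by day was lost with no level filter (unadjusted p = 0.0591), when the arrays were centred on their medians (unadjusted p = 0.0514), when 11 AM to 7 PM was set against 11 PM to 7 AM (unadjusted p = 0.320) and when any array but that of 7 PM was left out (unadjusted p from 0.0575 to 0.103), all by limma.

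**Figure D2:**
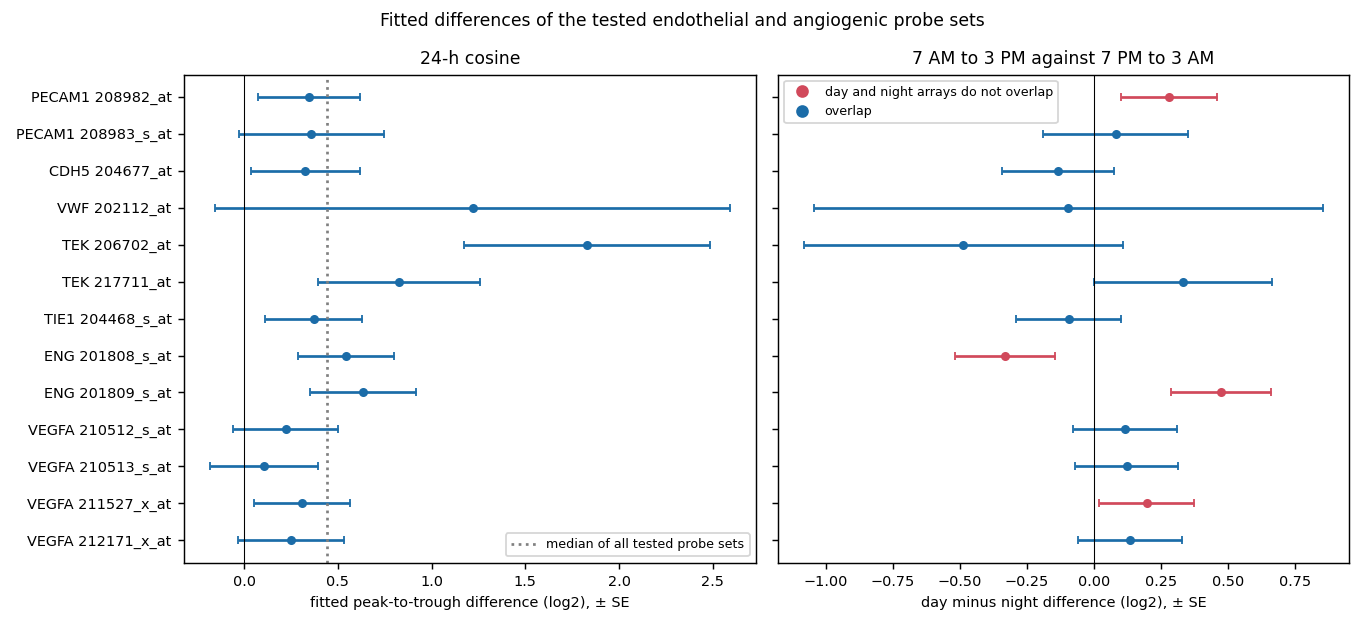
Fitted log2 peak-to-trough difference of the 24-h cosine (left) and day minus night log2 difference (right) for the 13 tested probe sets, each with its standard error over the 6 arrays; the dotted line is the median of all 11108 tested probe sets, and red points mark probe sets whose 3 day and 3 night arrays do not overlap. The ENG probe sets lie on opposite sides of 0, at -0.33 and 0.47, and the 4 VEGFA probe sets all lie between 0.11 and 0.20.

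VEGFA, the ligand, was the steadiest gene with several readings. On 210512_s_at it was 1795 at 3 AM, 1610 at 7 AM, 1573 at 11 AM, 1748 at 3 PM, 1416 at 7 PM and 1372 at 11 PM, a mean of 1586 ± 170 (SD, n = 6 arrays). On 212171_x_at it was 1566 at 3 AM, 1999 at 7 AM, 1776 at 11 AM, 1536 at 3 PM, 1771 at 7 PM and 1486 at 11 PM. The remaining probe sets, 210513_s_at and 211527_x_at, ran from 944 to 1275 and from 874 to 1118, with the lowest value of each at 7 PM. In each of the 4 the highest array was only 1.28 to 1.35 times the lowest.

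The time of the highest VEGFA value differed between its probe sets: 3 AM for 210512_s_at, 3 PM for 210513_s_at, 11 AM for 211527_x_at and 7 AM for 212171_x_at. All 4 had a positive day minus night difference, from 0.11 to 0.20 on the log2 scale with standard errors of 0.18 to 0.19, and fitted peaks between 8.63 h and 13.3 h. These hours were not stable: that of 210512_s_at was 17.8 h with age as a covariate (log2 peak-to-trough difference 1.13 in place of 0.22), and that of 210513_s_at 7.28 h with the arrays centred on their medians, 4.38 h without the 3 PM array and 17.8 h without that of 7 PM. The x_at suffix marks probe sets in which some probes may also bind other transcripts, and these probe sets read the same gene in the same 6 animals, so they are not 4 independent readings. None had an adjusted p under 0.928 in the cosine fit by limma. The fit of 211527_x_at was the closest to a cosine, with an R2 of 0.860 and a peak at 10.3 h for a log2 difference of 0.31 ± 0.26 (SE; exact p = 0.05).

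ANGPT2, the context-dependent antagonist of TEK, was dim on both probe sets. On 205572_at it read 10.3 at 3 AM, 14.3 at 7 AM, 36.3 at 11 AM, 15.9 at 3 PM, 50.2 at 7 PM and 110 at 11 PM. On 211148_s_at it read 9.60 at 3 AM, 8.00 at 7 AM, 14.3 at 11 AM, 22.7 at 3 PM, 12.9 at 7 PM and 4.70 at 11 PM. The 11 PM array is thus the highest on the first and the lowest on the second. At this level wide ranges are common: the highest array was at least 2 times the lowest in 80.1% of all probe sets below the level for testing and in 4 of the 5 such members, against 29.7% of tested probe sets and 3 of 13 tested members.

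Several members were read by more than one probe set in the same RNA, and probe sets of a gene can differ in the transcript ends they read and in how well they match macaque sequence, whose part was not tested. Over the 6 arrays the 2 ENG probe sets had a Pearson r of -0.66 and a Spearman rho of -0.77. The exact permutation p was 0.153 and 0.103 (adjusted p = 0.883 and 0.817 over the 12 pairs). Without the 2 arrays farthest from the median of 201808_s_at, r was -0.53. For PECAM1, 208981_at and 208982_at had an r of 0.92 and a rho of 0.71 (exact permutation p = 0.0208 and 0.136, adjusted p = 0.25 and 0.817). Leaving out the 2 arrays farthest from the median of 208981_at gave r = 0.82. The 2 TEK probe sets had an r of -0.01 and a rho of 0.20 (exact permutation p = 0.982 and 0.714; adjusted p = 0.982 and 0.876), but an r of 0.999 over the 4 arrays left without those 2. The 6 pairs of VEGFA ran from -0.53 to 0.40. Over the 9 pairs in which both probe sets were tested the median r was -0.01, with 5 below 0; over 3735 such pairs of all genes the median was 0.24, the 25th and 75th percentiles were -0.16 and 0.59, and 34.4% were below 0. Same-gene probe sets thus followed each other loosely over these arrays in general.

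**Figure D3:**
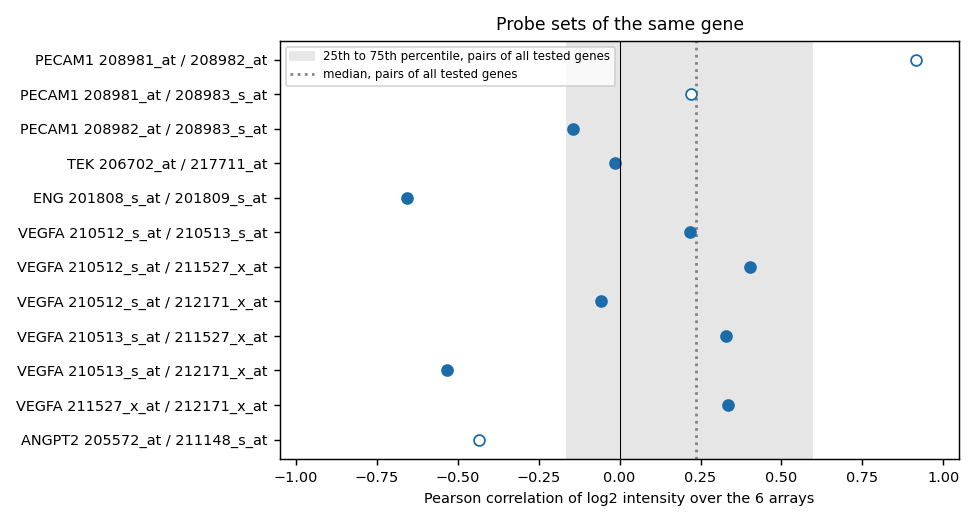
Pearson correlation of log2 intensity over the 6 arrays for the 12 pairs of probe sets that read the same member gene; open circles are pairs with a probe set below the level for testing, the grey band spans the 25th to 75th percentile of 3735 pairs of all tested genes and the dotted line their median of 0.24. ENG lies at -0.66 and the pair of PECAM1 208981_at and 208982_at at 0.92.

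Correlations between different member genes were spread around 0. With each of the 7 tested genes represented by its brightest probe set, the 21 pairs of genes had correlations over the 6 arrays from -0.67 to 0.75, a median of -0.09 and 9 above 0, given as a description. Among all 7164 genes so represented the median was 0.00 and 50.3% of pairs were above 0.

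Other genes of vessels likewise gave no call after adjustment. From 8 lists of vessel and angiogenesis genes holding 90 genes, 84 were on the array and 62 were tested on 87 probe sets. By limma 0 of the 87 passed adjustment for the cosine (lowest adjusted p = 0.866), and 8 of the 87 reached an unadjusted p below 0.05, which is 9.20% against 5.44% of all tested. Between day and night 0 passed adjustment (lowest adjusted p = 0.816), and at an unadjusted p under 0.05, 5 were higher by day, VEGFB, PODXL, EDNRB (204271_s_at), KLF2 and NOTCH4, and 1 lower, BNIP3 (201849_at), together 6.90% against 5.53% of all tested. The median log2 peak-to-trough difference was 0.40, against 0.44 for all tested, and the median day minus night difference -0.03, against -0.00.

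Among the other ligands, with 1 of 4 probe sets at the unadjusted threshold, VEGFB, a VEGF family member that binds FLT1, read 257 at 3 AM, 362 at 7 AM, 375 at 11 AM, 255 at 3 PM, 229 at 7 PM and 134 at 11 PM. Its cosine peaked at 9.81 h with a peak 2.40 times the trough (log2 1.26 ± 0.33, SE; unadjusted p = 0.0169, adjusted p = 0.866 by limma). VEGFC, the lymphatic growth factor, had a log2 difference of 0.69 ± 0.32 (SE) with its lowest array, 153, at 3 PM. Of the 8 probe sets of other receptors 0 had an unadjusted p under 0.05, where the lowest belonged to NRP2, a co-receptor for VEGF and semaphorins (0.73 ± 0.29, SE; unadjusted p = 0.103 by limma), and PLXND1, a semaphorin receptor of vessels (0.47 ± 0.28, SE).

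In the group of surface and junction genes 1 of 16 had an unadjusted p under 0.05. This was PODXL, a sialomucin of endothelium, at 133 at 3 AM, 252 at 7 AM, 282 at 11 AM, 275 at 3 PM, 242 at 7 PM and 150 at 11 PM (peak 2.18 times the trough at 13.0 h; unadjusted p = 0.0195 by limma). ROBO4, a guidance receptor of endothelial cells, followed with 1.15 ± 0.48 (SE) on the log2 scale, resting on 376 at 3 PM against 108 to 204 elsewhere. At 11 PM only 1 of these 16 probe sets lay above its own mean, against 13 at 11 AM.

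Endothelial transcription factors had 2 of 19 probe sets at the unadjusted threshold. KLF2, which flowing blood induces in endothelium, read 780 at 3 AM, 985 at 7 AM, 1027 at 11 AM, 1075 at 3 PM, 670 at 7 PM and 584 at 11 PM, with all 3 day arrays above all 3 night arrays (day minus night 0.61 on the log2 scale; peak at 10.8 h, unadjusted p = 0.0394 by limma). FLI1, an ETS factor, ran the other way on 211825_s_at, from 137 at 11 AM to 426 at 11 PM (peak at 23.6 h). Its unadjusted p was 0.0309 by limma and its exact permutation p 0.0167, the smallest possible. The other tested FLI1 probe set, 210786_s_at, did not share this course. It read 245 at 11 AM and 275 at 3 PM and was lowest at 11 PM with 155 (peak at 13.2 h, unadjusted p = 0.407 by limma).

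Of the Notch and ephrin genes 2 of 8 were at the threshold. NOTCH4, the endothelial Notch receptor, read 118 at 3 AM, 207 at 7 AM, 351 at 11 AM, 366 at 3 PM, 205 at 7 PM and 215 at 11 PM (2.60 times the trough at 13.8 h; unadjusted p = 0.0170 by limma). EPHB4, the venous ephrin receptor, was lowest at 7 AM with 107 and highest at 7 PM with 358 (peak at 18.2 h; unadjusted p = 0.0344 by limma). Among activation, clotting and vasoactive genes 2 of 10 were at the threshold. EDNRB, an endothelin receptor, was so on 206701_x_at (peak 1.81 times the trough at 8.66 h). Its probe set 204271_s_at, named above for day against night, had 2.25 times at 10.8 h (unadjusted p = 0.0558 by limma). ICAM1, a leukocyte adhesion molecule, was so on 215485_s_at (2.02 times, 16.2 h). It was not on 202637_s_at and 202638_s_at (unadjusted p = 0.568 and 0.831 by limma).

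The TGF-beta and BMP list had 0 of 6 at the threshold in either test; its lowest p values belonged to ID1, a BMP target (0.91 ± 0.34, SE, lowest at 7 PM with 263), and SMAD1, a BMP signal transducer (0.74 ± 0.30, SE). Hypoxia factors and targets, which include the machinery that induces VEGFA when oxygen is short, had 0 of 16 at the threshold for the cosine and 1 lower by day. Their lowest cosine p values were those of BNIP3, a mitochondrial protein (1.04 ± 0.43, SE, with 223 at 3 AM and 616 at 11 PM), and PGK1, a glycolytic enzyme (0.58 ± 0.26, SE).

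**Figure D4:**
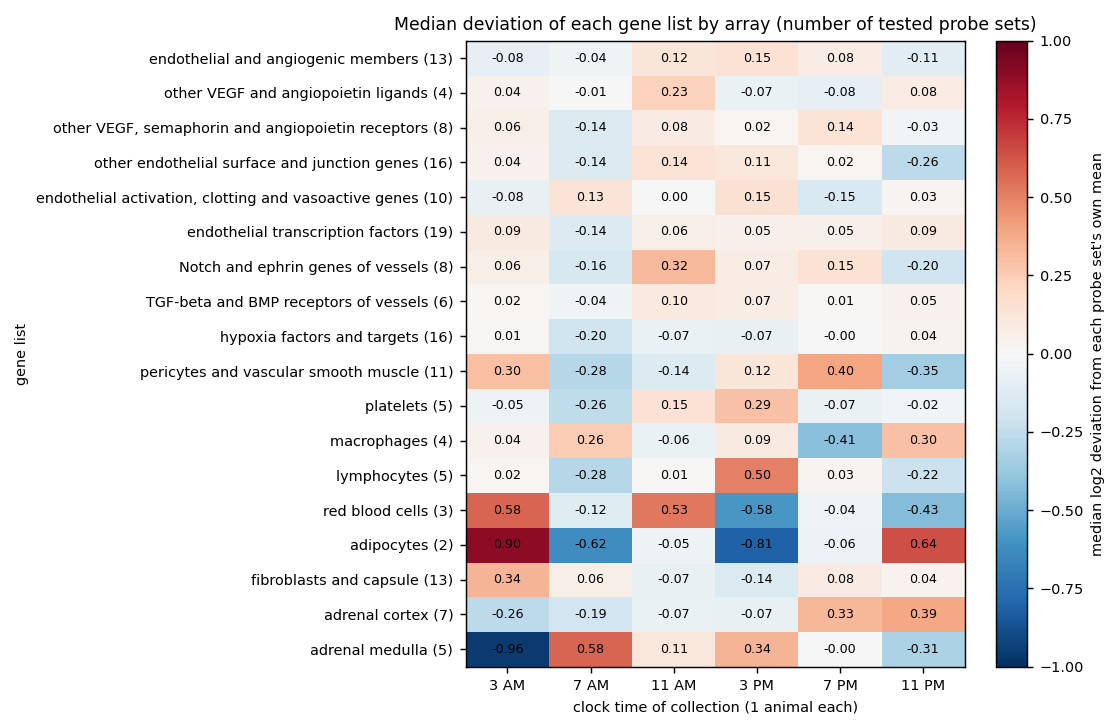
Median log2 deviation from each probe set's own mean, by array, for the members (top row), the 8 related lists and markers of other cell types; the number of tested probe sets of each list stands in brackets, and each column is 1 animal. The members stay between -0.11 and 0.15, while adipocyte markers (2 probe sets) reach 0.90 and medulla markers -0.96 at 3 AM.

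Across the arrays the members' median deviation from their own means stayed between -0.11 at 11 PM and 0.15 at 3 PM. The number of the 13 above their own mean was 4 at 3 AM, 6 at 7 AM, 10 at 11 AM, 9 at 3 PM, 7 at 7 PM and 4 at 11 PM. Of all tested probe sets the share above their own mean ran from 47.5% to 53.9%. The highest count thus fell at 11 AM and the lowest at 11 PM and 3 AM, with several probe sets of 1 gene counted separately. Medulla markers were higher by day in 5 of 5 probe sets, with summed intensities of 20950 to 34549 by day and 13569 to 20974 by night, and cortex markers in 0 of 7 (sums of 59277 to 62941 by day and 54375 to 81868 by night). The part of this shift in the members' values was not tested.

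The probe sets whose course was most like that of TEK 206702_at over the 6 arrays were those of CTNS (r = 0.9995), OASL (r = 0.994) and CES2 (r = 0.993) among 9828 compared, 59 of which had an r of at least 0.95. CTNS, the lysosomal cystine transporter, read 236 at 3 AM, 59.7 at 7 AM, 286 at 11 AM, 387 at 3 PM, 325 at 7 PM and 231 at 11 PM. These values track the TEK probe set array by array, the low 7 AM value included. For VWF they were DDAH1, which degrades methylated arginines (r = 0.986), TNKS2, a tankyrase (r = 0.984), and EFEMP1, a matrix glycoprotein (r = 0.971), with 12 of 9829 at an r of at least 0.95. DDAH1 was 406 at 3 AM and 192 to 289 elsewhere, and EFEMP1 2042 at 3 AM and 1079 to 1568 elsewhere. With 6 points such values are a description of likeness only.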

How the data were processed

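The authors' deposited table gives 1 linear intensity per probe set and array, without a stated summary method or software (not given in the sources used here). The trimmed mean of each array, with 2% removed at each end, lay between 325.04 and 325.09, so the deposited intensities had already been scaled. Per the labels' protocols, RNA was primed with oligo-dT and labelled by in vitro transcription. Of 22283 probe sets 68 are controls; 19065 name 1 gene, 1043 several and 2107 none in the platform annotation. Probe sets were tested singly as log2(intensity + 1) where their mean was at or above the median (7.30), with limma 3.58.1 in R 4.3.3 (moderated F test of a cosine and sine with a period of 24 h, 3 residual degrees of freedom; moderated test of day minus night) and Benjamini-Hochberg adjustment over all 11108. R2 was compared over all 60 circular orders as an exact test. The fits were also run on simulated data with independent noise for each probe set. Those data held no shifts shared by the probe sets of an animal and no age differences, so they do not check for these. From each related list the 2 probe sets with the smallest cosine p were named, and for likeness the 3 closest to 2 members chosen by smallest p and widest range; MYH11 and the other marker genes were named after their values were seen. The members and lists were chosen with earlier results of these data known. The number of arrays limits the precision.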

Additional observations from a re-analysis of the deposited data

How the results depend on the processing

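Adjusted over all probe sets, 0 member probe sets passed either test under every alternative run: no level filter, a stricter one, quantile normalization, centring on the array median, a pseudocount of 16, a trend and robust prior, age as a covariate, 1 probe set per gene, each array left out and, for day against night, 11 AM to 7 PM against 11 PM to 7 AM. At an unadjusted p under 0.05 the cosine count of 0 became 1 with no level filter (PECAM1 208981_at), where 5.14% of all 22215 reached it. It was 0 to 2 with an array left out, for which the share of all probe sets is not given here. These were VWF (then below the level for testing) and TEK 206702_at without 3 AM, VWF without 7 AM, and TEK 206702_at without 11 AM. Without 7 AM, VWF was at that level only through its 3 AM array, so this call is not read. The day against night count of 1 became 0 with the stricter filter (6 members tested) and with centring on the median. It was also 0 with 1 probe set per gene (7 tested). With no level filter the count stayed at 1 but was PECAM1 208981_at instead of ENG 201809_s_at, where 5.03% of all 22215 reached the threshold. For 11 AM to 7 PM against 11 PM to 7 AM it was TEK 206702_at, where 590 of all 11108 did. With an array left out the count was 0 to 2, where 544 to 655 of all 11108 did. The 2 were ENG 201809_s_at and TEK 217711_at without 7 PM, where 587 of all did. The VWF peak moved by over 6 h without 3 AM (log2 difference 2.42, and 0.52 to 3.68 over the arrays left out) and to 18.2 h with age as a covariate (10.3), and TEK 206702_at, at -0.49 by day, stood at 1.15 for 11 AM to 7 PM against 11 PM to 7 AM; apart from the fewer probe sets or arrays, the cause was not tested. In 13 further cases with neither value past the threshold the direction differed. No paired analysis was possible because no clock time was repeated. The table gives no background signal, so how far dim probe sets stand above it is unknown.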
